A study of Rattus norvegicus with 10 samples.

Results

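The alpha and beta globin genes were followed in CD11b+ cells of the rat brain after intracerebral hemorrhage (ICH). Members were the 5 globin rows of the study's supplementary expression table, namely Hba-a1, Hba-a2, LOC100134871, Hbb and Hbb-bs, out of 32883 genes in the deposited count table. The count table gives Ensembl identifiers without symbols, and only 2 of the 5 members could be tied to an identifier, Hba-a1 to ENSRNOG00000029886 and Hbb to ENSRNOG00000058105. Hba-a2, LOC100134871 and Hbb-bs could not be tied to 1 identifier each, and no value is given under these names. A further 2 identifiers, ENSRNOG00000047321 and ENSRNOG00000061299, had the pattern closest to Hba-a1 of all genes tested and are described by identifier, beside the members. The closest name for ENSRNOG00000047321 was Hba-a2 and for ENSRNOG00000061299 LOC100134871. The match with Hba-a2 missed the required margin over the next best, and Hbb-bs was closest to ENSRNOG00000047321 as well. LOC100134871 was itself closest to ENSRNOG00000029886, the identifier of Hba-a1. Neither identifier was therefore named.

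The study compared male Sprague-Dawley rats, 12 weeks old, that had received saline or rhCDNF, a recombinant form of the human protein cerebral dopamine neurotrophic factor, into the cerebral ventricle 1 h after ICH. Both groups carried the hemorrhage, and no rat without ICH was among the libraries. The study induced ICH in rats by collagenase, which damages vessel walls, or by infusing the rat's own blood. Its abstract names the collagenase model, and results after blood infusion are shown for the injured area only. Which of these the sequenced rats received was not stated for them in the sources used here. On day 3 the striatum of the bleeding side was dissociated, myelin was removed with beads, and cells were selected on magnetic columns with antibody to CD11b, a surface protein of microglia, macrophages and other myeloid cells. Each group gave 5 libraries, which carry names after the index in the column heading, S1 to S5 where rats had saline and S6 to S10 where they had rhCDNF. The study's methods count n in animals, and its results give 5 per group for this experiment. The labels name no animal for a library.

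Hemoglobin of red blood cells is built of alpha-type and beta-type chains in equal number, each holding a heme. The alpha genes lie together in 1 cluster and the beta genes in another, on a different chromosome, and both clusters are transcribed strongly in erythroid precursors. Reticulocytes that have lost their nucleus still carry globin mRNA into the blood, and low levels of globin transcripts have also been described in cells outside the erythroid lineage. In ICH, red blood cells enter the brain tissue and are taken up by microglia and macrophages.

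In RefSeq, all 5 members matched by gene ID, with Hba-a1 and Hba-a2 on chromosome 10 and the 3 beta-type genes on chromosome 1 of the GRCr8 build. LOC100134871 has the symbol Hbbl1 there, and Hba-a1 and Hba-a2 each list the other's symbol as a synonym. The 250 bases before the annotated start are printed for the 2 members with values and for 1 further gene of each type, to show how alike the alpha genes are upstream and how far Hbb differs there from another beta-type gene. All are on the minus strand, written 5′ to 3′ in the sense of the gene, at chr10:15842581-15842830 for Hba-a1, chr10:15829139-15829388 for Hba-a2, chr1:167663722-167663971 for Hbb and chr1:167650236-167650485 for LOC100134871. Capitals mark short forms of motifs known from globin promoters, on either strand, which are the GATA motif written as GATAA, the CACC motif written as CACCC, the CCAAT box, and the ATA box written as ATAAA.
Hba-a1: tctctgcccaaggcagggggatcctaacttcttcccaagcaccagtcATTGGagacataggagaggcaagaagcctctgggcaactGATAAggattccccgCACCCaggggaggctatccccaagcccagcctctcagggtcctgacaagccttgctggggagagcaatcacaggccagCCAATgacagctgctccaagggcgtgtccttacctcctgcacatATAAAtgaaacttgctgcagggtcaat
Hba-a2: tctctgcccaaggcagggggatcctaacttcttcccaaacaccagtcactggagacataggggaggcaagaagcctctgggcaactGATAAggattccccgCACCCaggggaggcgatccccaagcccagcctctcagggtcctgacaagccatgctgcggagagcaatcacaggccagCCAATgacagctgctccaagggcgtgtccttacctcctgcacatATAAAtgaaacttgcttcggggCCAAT
Hbb: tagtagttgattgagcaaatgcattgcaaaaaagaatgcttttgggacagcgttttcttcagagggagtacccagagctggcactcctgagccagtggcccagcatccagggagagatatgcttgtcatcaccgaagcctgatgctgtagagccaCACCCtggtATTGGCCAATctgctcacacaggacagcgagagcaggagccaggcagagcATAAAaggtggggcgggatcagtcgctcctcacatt
LOC100134871: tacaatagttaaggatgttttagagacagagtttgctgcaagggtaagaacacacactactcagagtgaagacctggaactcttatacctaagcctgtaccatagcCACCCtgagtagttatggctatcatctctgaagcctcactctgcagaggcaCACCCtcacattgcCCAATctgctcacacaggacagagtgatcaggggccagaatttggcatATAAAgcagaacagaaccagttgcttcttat

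The upstream sequences of Hba-a1 and Hba-a2 were 96.4% identical, with 9 mismatches and 0 gaps. Those of LOC100134871 and Hbb-bs were 93.3% identical, whereas Hbb was 60.7% identical to LOC100134871 and 61.5% identical to Hbb-bs. Between alpha-type and beta-type genes the identity was 49.5% to 52.0%, so that the alpha copies and the copies LOC100134871 and Hbb-bs each formed a close pair and Hbb stood by itself. The CACC motif, the CCAAT box and the ATA box were found before all 5 members, and the GATA motif before Hba-a1 and Hba-a2 only, 1 match each, at positions -164 to -160 from the start. The ATA box on the strand of the gene lay between positions -36 and -23 in every member. In the same window of 33469 rat genes the GATA motif was present in 23.5%, the CACC motif in 49.2%, the CCAAT box in 34.0% and the ATA box in 39.3%, and all 4 motifs together in 2.13%. The motifs overlap each other in no member, they were chosen after the sequences had been seen, and a match is a description of letters only.

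**Figure D1:**
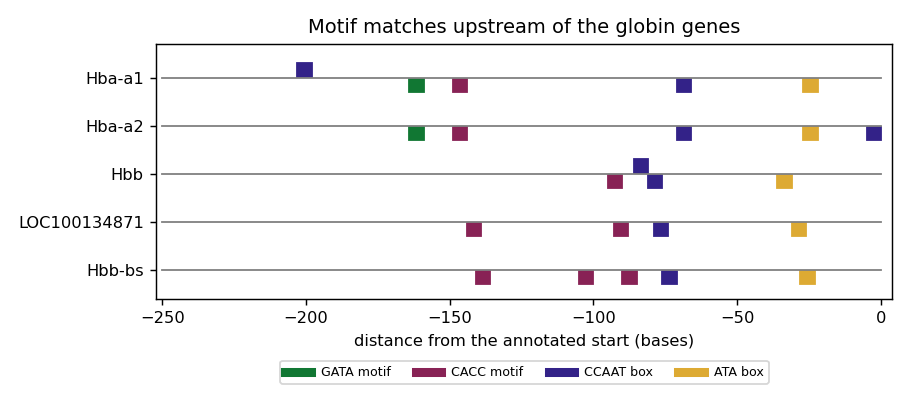
Motif matches in the 250 bases before the annotated start of the 5 globin genes, with distance from the start in bases on the horizontal axis and 1 line per gene; boxes below the line are matches on the strand of the gene and boxes above it matches on the other strand. The GATA motif is seen in Hba-a1 and Hba-a2, while the other 3 motifs are seen in all 5 genes.

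The 10 libraries held between 14376582 and 16784638 counts. Of the 32883 genes 19826 had a count, and 12199 passed the expression filter and were tested. Library S8 of the ICH + rhCDNF group stood apart for globin, and the main results are therefore given with it and without it. Its depth of 14784032 counts lay within the range of the others.

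Globin transcripts were detected in every library of both groups. Hba-a1, which encodes an alpha chain of adult hemoglobin, had 307, 309, 328, 244 and 121 counts in S1 to S5 of the ICH + saline group. In S6 to S10 of the ICH + rhCDNF group it had 569, 165, 12352, 648 and 581 counts. Library S8 was far above all others, S5 and S7 were the lowest of their groups, and the groups overlapped through S7. As CPM, counts scaled to a common library size with TMM factors, Hba-a1 lay at 18.1, 20.6, 21.4, 16.8 and 8.65 in the saline libraries and at 33.3, 11, 854, 42.8 and 40.7 in the rhCDNF libraries. The CPM of S8 was 19.96 times that of the next library, S9, and 47.2 times the saline median.

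Hbb, which encodes the main adult beta chain, had 81, 104, 104, 75 and 23 counts in S1 to S5 and 169, 66, 2973, 180 and 194 in S6 to S10. In CPM these were 4.77, 6.92, 6.79, 5.15 and 1.64 in saline and 9.89, 4.4, 206, 11.9 and 13.6 in rhCDNF. S8 was again the highest library, 15.1 times the next, S10, and S5 again the lowest. For Hba-a1 and Hbb alike the ascending order began with S5 and S7, went on through the other 4 saline libraries and ended with S6, then S9 and S10 in either order, then S8.

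The identifiers without a unique name gave the same picture. ENSRNOG00000047321 ranged from 57 to 156 counts in saline and had 243, 87, 5943, 293 and 243 counts in S6 to S10. ENSRNOG00000061299 ranged from 15 to 47 counts in saline and had 88, 29, 1807, 92 and 99 counts in rhCDNF. Their CPM in S8, 411 and 125, were 21.2 and 18.0 times those of the next library. Reads from near-identical copies can be shared or lost in counting, and in the study's annotation the span of Hbb-bs encloses that of LOC100134871, so the division of reads between copies is uncertain for all 4 identifiers.

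**Figure D2:**
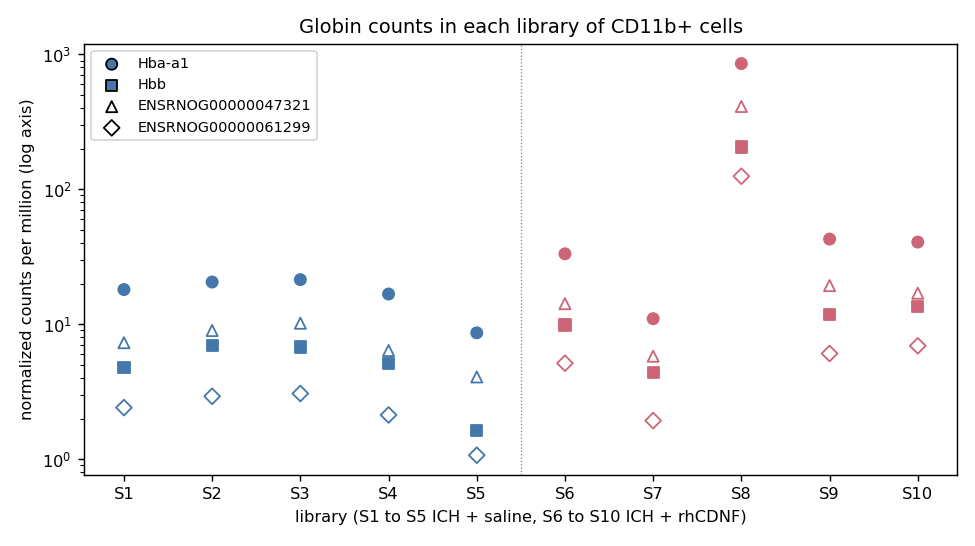
Normalized CPM, on a log axis, of Hba-a1, Hbb and the 2 identifiers without a unique name in each library, ICH + saline (S1 to S5, blue) left of the dotted line and ICH + rhCDNF (S6 to S10, red) right of it, 1 point per gene and library. S8 lies far above every other library for all 4, and S5 is the lowest for all 4.

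In the comparison of the groups, mean Hba-a1 was 17.1 ± 5.08 CPM in ICH + saline and 196 ± 368 CPM in ICH + rhCDNF (SD, n = 5 each), a ratio of 11.5. The SD of the rhCDNF group exceeded its mean. In the edgeR quasi-likelihood test over all 12199 genes, the log2 fold change was 3.52 (SE 1.07) with an unadjusted p of 0.00662 and an adjusted p of 0.365. Each edgeR SE given here is the absolute log2 fold change divided by the square root of the test's F statistic, not a direct estimate. Mean Hbb was 5.06 ± 2.14 CPM in saline and 49.1 ± 87.6 CPM in rhCDNF, with an edgeR log2 fold change of 3.27 (SE 1.02), an unadjusted p of 0.00764 and an adjusted p of 0.365. Neither gene passed the threshold of 0.05. The edgeR test called 0% of all genes, with a smallest adjusted p of 0.191, and 1511 genes had an unadjusted p under 0.05. An unadjusted p under 0.05 with a higher level in rhCDNF was found for 6.89% of all genes, and under 0.01 for 1.51%, which includes both members. ENSRNOG00000047321 and ENSRNOG00000061299 had log2 fold changes of 3.65 and 3.62, given as a description because they were picked for their likeness to Hba-a1. A fitted fold over 3 in this direction was reached by 0.0820% of all genes, including both members and both of these identifiers. DESeq2 gave both members and both identifiers no p-value, because the Cook distance of S8, 31.4 to 44.3, was over its limit of 8.65.

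Without S8, mean Hba-a1 in the rhCDNF group was 31.9 ± 14.5 CPM (SD, n = 4), 1.87 times the saline mean, and mean Hbb was 9.94 ± 3.99 CPM, 1.97 times the saline mean. The edgeR log2 fold changes were then 0.90 for Hba-a1 and 0.97 for Hbb, each with an adjusted p of 0.304. For Hba-a1, Hbb and both other identifiers 4 of 5 rhCDNF libraries lay above every saline library, and 3 of 4 did so without S8, S7 being the exception. The share of all genes with at least 4 of 5 rhCDNF libraries above every saline library was 4.98%, and with at least 3 of 4 without S8 it was 10%. ENSRNOG00000047321 and ENSRNOG00000061299 had log2 fold changes of 0.93 and 1.10 without S8, again with no test. The direction of these differences was therefore the same without S8, whereas their size rested on it.

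**Figure D3:**
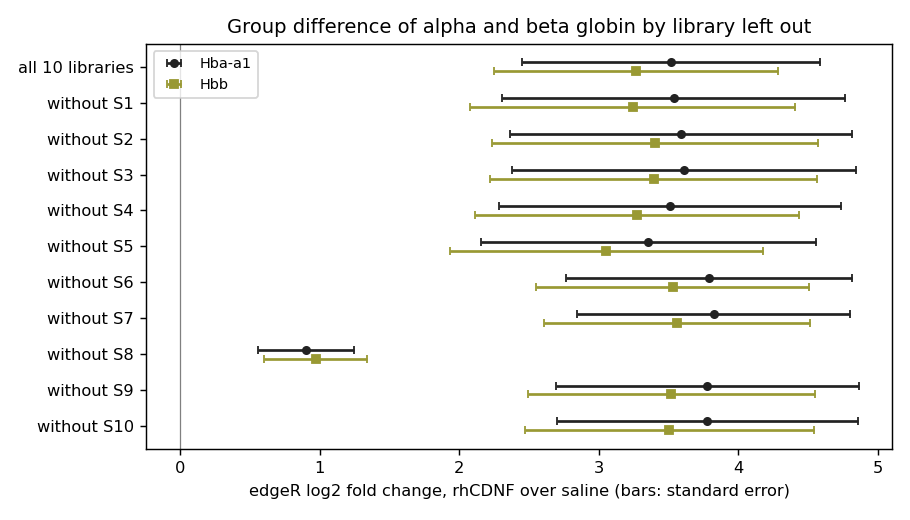
edgeR log2 fold change, rhCDNF over saline, of Hba-a1 (circles) and Hbb (squares) with all 10 libraries and with each library left out. Bars are 1 standard error, derived from the fold change and the F statistic of the test. Leaving out S8 lowers the values to 0.90 and 0.97, while they stay between 3.05 and 3.82 when any other library is left out.

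On the log2 CPM scale, which weighs S8 less, the exact two-sided permutation test gave a difference of 1.77 for Hba-a1 (rhCDNF minus saline, p = 0.0635) and of 1.88 for Hbb (p = 0.0476). With 5 against 5 libraries the smallest p possible is 0.00794. Both tests concern the same libraries, and neither p was adjusted over genes. The members were also chosen with earlier results of these data known. Without S8 the exact permutation test gave a difference of 0.79 for Hba-a1 (p = 0.127) and 0.99 for Hbb (p = 0.103). Without S7 the differences were 2.35 and 2.37, each with the smallest possible exact p of 0.00794. That p follows from leaving out the only rhCDNF library that overlapped saline, and nothing is concluded from it. The Hbb test missed the threshold when any 1 library other than S6 or S7 was left out.

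The share of each library in globin was small. Hba-a1, Hbb and the 2 other identifiers together took 0.00329%, 0.00397%, 0.00418%, 0.00303% and 0.00150% of the counts of S1 to S5. In S6 to S10 the share was 0.00642%, 0.00241%, 0.156%, 0.00772% and 0.00773%. S8 held 23075 counts of the 4 identifiers out of 14784032 (exact Clopper-Pearson 95% interval 0.154% to 0.158%). S5, the lowest, held 216 of 14376582 (0.00131% to 0.00172%). The interval covers counting error only, since PCR copies of 1 molecule were not told apart. The mean share was 0.00320 ± 0.00106% in saline and 0.0361 ± 0.0671% in rhCDNF (SD, n = 5 each), and 0.00607 ± 0.00252% in rhCDNF without S8 (n = 4). Of the 29260 counts of the 4 identifiers in the 10 libraries 78.9% came from S8. These figures include the 2 identifiers picked for their likeness to Hba-a1. For Hba-a1 and Hbb alone the mean share was 0.00222 ± 0.00074% in saline and 0.0241 ± 0.0445% in rhCDNF. Without S8 it was 0.00417 ± 0.00176% in rhCDNF, and 78.2% of the 19593 counts came from S8. In bulk libraries more globin-bearing cells and more globin RNA per cell cannot be told apart.

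The ratio of alpha to beta counts was steadier than either level. Since the counts are not divided by transcript length, the ratio is read between libraries only, not as the relative amount of the chains. Hba-a1 had 3.79, 2.97, 3.15, 3.25 and 5.26 counts per Hbb count in S1 to S5 and 3.37, 2.5, 4.15, 3.60 and 2.99 in S6 to S10. The highest ratio was 2.10 times the lowest, and the groups overlapped. The mean was 3.69 ± 0.93 in saline and 3.32 ± 0.62 in rhCDNF (SD, n = 5 each). The log2 ratio differed by -0.14 (rhCDNF minus saline, exact two-sided permutation test, p = 0.516), by -0.22 without S8 (p = 0.333) and by -0.0014 without S5 (p = 1). A p over the threshold does not show that the ratios are alike.

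The depth behind these ratios differed between libraries. The pooled ratio of the 9 libraries other than S8 was 3.29, and the exact 95% interval held this value in 8 of 10 libraries. The exceptions were S5, with 5.26 (3.35 to 8.61) resting on 23 Hbb counts, and S8, with 4.15 (3.99 to 4.33) resting on 2973. S8 had thus more alpha per beta count than the pooled value, by a margin beyond its counting error. Its ratio was above those of the other libraries except S5. ENSRNOG00000047321 had 0.381 to 0.527 counts per Hba-a1 count over the 10 libraries. ENSRNOG00000061299 had 0.124 to 0.143 counts per Hba-a1 count in saline and 0.142 to 0.176 in rhCDNF, and 0.413 to 0.652 per Hbb count over all libraries. These ratios moved by at most 1.58 times between libraries, with no test, because both identifiers were picked for their pattern.

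**Figure D4:**
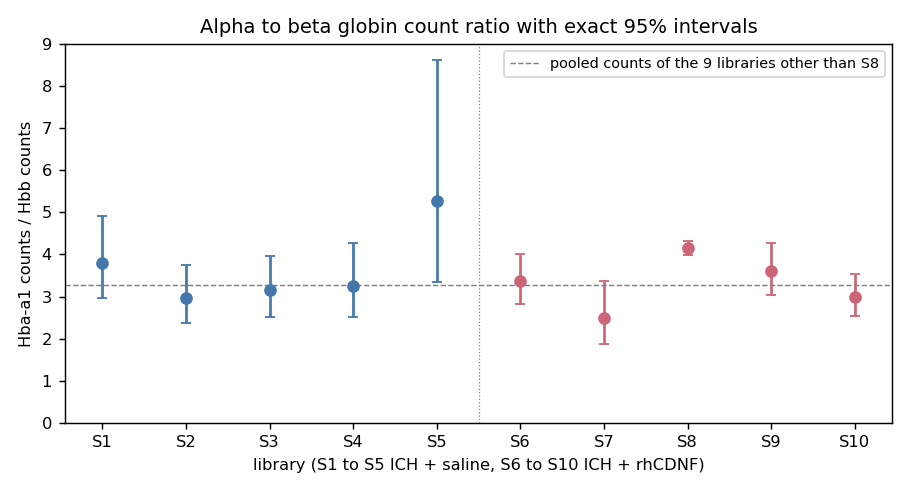
Hba-a1 counts per Hbb count in each library with exact 95% intervals, ICH + saline (S1 to S5, blue) and ICH + rhCDNF (S6 to S10, red); the dashed line is the pooled ratio of the 9 libraries other than S8, 3.29. The intervals of S5 and S8 lie above the line and the other 8 cross it.

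Alpha and beta globin varied together over the libraries. Between Hba-a1 and Hbb on the log2 CPM scale, Pearson's r was 0.988 (permutation p = 1e-05, the smallest that the 100000 resamples can give) and Spearman's rho 0.964 (permutation p = 6e-05) over 10 libraries. This was the only pair tested, and the values share the library and its scaling. The permutation took no account of treatment, so a group difference common to both genes adds to r and its p. Without S5 and S8, the 2 libraries farthest from the median, r was 0.964 (permutation p = 0.00022, n = 8), and without S8 alone it was 0.952. Within a group of 5 libraries no correlation was computed.

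**Figure D5:**
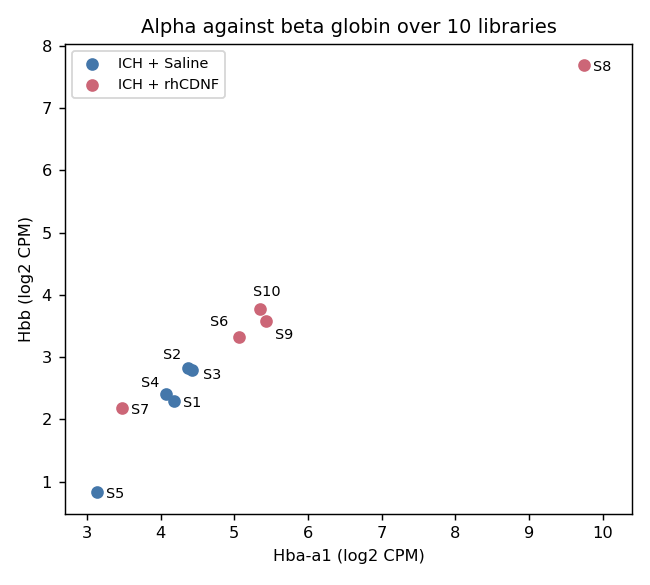
Hbb against Hba-a1, both in log2 CPM with a prior count of 2, for the 5 ICH + saline (blue) and 5 ICH + rhCDNF (red) libraries, 1 labelled point each. The points follow 1 line from S5 at the lower left to S8 at the upper right, with r = 0.988.

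Among the 12198 other genes tested, the 3 most like Hba-a1 over the 10 libraries were ENSRNOG00000047321 (r = 0.997), ENSRNOG00000061299 (r = 0.997) and Hbb (r = 0.988). The fourth, ENSRNOG00000001598, had an r of 0.934, and 99% of genes had an r below 0.702. Without S8 the 3 most alike were again these, with r of 0.985, 0.982 and 0.952, although the fourth gene, at 0.95, was then close behind Hbb. These correlations are a description over libraries that share their preparation. Of the remaining genes among the 10 most alike over the 10 libraries, Alox15 alone could be named, at the ninth place with an r of 0.880. Alox15 was not among the 10 most alike without S8, nor by Spearman's rho with or without S8.

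Alox15 encodes arachidonate 15-lipoxygenase, an enzyme known from reticulocytes, where it acts on organelle membranes during maturation, and also from macrophages and eosinophils. It lay at 0.65 to 1.24 CPM in the saline libraries and at 1.05 to 1.93 CPM in the rhCDNF libraries other than S8. In S8 it reached 64.8 CPM, from 937 counts, which was 33.5 times the next library. Its edgeR log2 fold change was 3.87 (SE 1.29, adjusted p = 0.367). Without S8 its mean was 1.42 ± 0.42 CPM in rhCDNF (SD, n = 4) against 0.962 ± 0.27 CPM in saline. Of the 12199 genes tested, 5 (0.0410%) were over 5 times higher in S8 than in every other library. These were Hba-a1, Hbb, the 2 identifiers without a unique name, and Alox15. S6 had 3 such genes and the other 8 libraries 0. The expression filter had removed genes with enough counts in too few libraries, so a gene present mainly in S8 was not searched for.

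Names for the other genes came from matching values with the study's table, of which the 1998 rows with the smallest p were used. Most genes of a pathway were therefore not analysed here. A tied gene was also picked for a small p in a table of these same libraries. Differences of tied genes are thus a description and cannot stand for a list or a cell type. Of 113 listed genes 27 were in these rows and 13 could be tied to an identifier, and 0 of the 13 passed the edgeR threshold. None of the other globins, the heme synthesis enzymes, or the markers of platelets, neutrophils, lymphocytes and neurons could be tied, and Itgam, which encodes CD11b, was likewise not analysed here. Of the 26 erythroid genes other than globins 3 were tied, Alox15 among them. Tal1, a transcription factor of blood and endothelial precursors, was at 34.0 ± 2.31 CPM in saline and 44.8 ± 9.78 CPM in rhCDNF (log2 fold change 0.40, edgeR adjusted p = 0.365). Tfrc, the transferrin receptor, was at 527 ± 77.3 CPM and 438 ± 80.2 CPM (log2 fold change -0.27, edgeR adjusted p = 0.440). In S8 Tal1 was the eighth and Tfrc the sixth of 10 libraries in ascending order, so that these genes did not stand out as the globins did.

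For hemoglobin and heme handling 2 of 20 genes were tied. Slc48a1, a heme transporter of the phagolysosome, was at 243 ± 38.4 CPM in saline and 202 ± 32.8 CPM in rhCDNF (log2 fold change -0.27, edgeR adjusted p = 0.429). Flvcr1, a heme exporter, was at 10.9 ± 0.94 CPM and 13.3 ± 1.77 CPM (log2 fold change 0.29, edgeR adjusted p = 0.371). Neither list can be read as a whole from so few members.

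The labelled cell type was checked by its markers. Of 10 myeloid markers 4 were tied, with Csf1r, the receptor for a growth factor of macrophages, at 2412 ± 227 CPM in saline and 2889 ± 532 CPM in rhCDNF, and the microglial genes Cx3cr1, P2ry12 and Tmem119 at 314 ± 10.5, 138 ± 17.7 and 53.1 ± 21.9 CPM in saline. In rhCDNF the microglial genes were at 385 ± 109.6, 204 ± 69.0 and 77.3 ± 50.8 CPM. The fitted difference was above 0 for all 4 tied myeloid genes, as it was for globin, with log2 fold changes of 0.26 to 0.57 and edgeR adjusted p of 0.371 to 0.555, and their part in the globin difference was not tested. Of the other cell types the astrocyte genes Gfap and Slc1a2 lay at 23.3 ± 8.40 and 1.31 ± 0.45 CPM in saline and the endothelial gene Vwf at 39.9 ± 15.1 CPM. In S8 the tied cell type markers did not stand apart upward. Of the 13 tied genes only Alox15 was highest in S8, and Cx3cr1 and Slc1a2 were lowest there, at 278 and 0.622 CPM. The part of other cells in the globin level of S8 was not tested, because the defining erythroid markers could not be tied to identifiers.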

How the data were processed

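CD11b+ cells of the hemorrhagic striatum were sequenced after ribosomal RNA depletion and directional library preparation. Per the labels and methods, the authors trimmed reads with Trimmomatic 0.36, aligned them with STAR (2.5.3a in the processing notes) to Rnor_6.0 and made the deposited counts, raw whole numbers per Ensembl gene, with featureCounts of Subread 1.6.4. Handling of strand and of reads with several hits was not given in the sources used here, so near-identical globin copies are uncertain. Column headings carry library numbers that the study's supplementary table assigns to a group, not to 1 sample.

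Identifiers were tied to names by the SD over libraries of the log2 ratio between counts and the study's table (mutual best, next best at least 1.5 times as large). Values of that table were not used otherwise. edgeR 4.0.16 (R 4.3.3) was run with TMM, filtering by expression, a quasi-likelihood test of 12199 genes and Benjamini-Hochberg adjustment at 0.05. It was tested on simulated data. log2 CPM carried a prior count of 2. Exact permutation tests and Clopper-Pearson intervals were computed in scipy 1.17.1. Ratio intervals came from the binomial share of numerator counts. Alternatives were DESeq2 1.42.0, other scaling, no filter, robust moderation, a prior count of 0.5, Spearman's rho, and each library left out. The chi-square per gene between libraries of the same group was 8.002 to 62.4, so none agreed within sampling noise.

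The named genes were all members, the 10 genes most like Hba-a1 with and without S8 where named, and up to 4 genes of each list. The values of 1 listed gene are not reported here. Members and lists were chosen with earlier results of these data known. Upstream sequences came from RefSeq (GRCr8), and 0 Ensembl identifiers matched its gene table.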

Additional observations from a re-analysis of the deposited data

Results flagged for a closer look

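In groups of 5 libraries, a value was singled out when its gap to the nearest library exceeded 0.71 of the range of the group. For independent, normally spread values chance gives about 1 in 20. Of 20 group values tried 8 did so. In the ICH + rhCDNF group S8 stood apart in CPM, with a gap of 0.962 of the range for Hba-a1, 0.954 for Hbb, 0.967 for ENSRNOG00000047321 and 0.959 for ENSRNOG00000061299. On the log2 CPM scale the gap of S8 was 0.719 for ENSRNOG00000047321. The share of the library in the 4 identifiers gave a gap of 0.965 for S8. In the ICH + saline group S5 stood apart at the low end on the log2 CPM scale, with a gap of 0.729 for Hba-a1 and 0.736 for Hbb. These values are not independent, because the 4 identifiers moved together over the libraries.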

How the results depend on the processing

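The size of the globin difference rested on S8. edgeR called 0 genes under every edgeR setting tried, with 1511 at an unadjusted p under 0.05 in the reported fit and 986 to 1833 in the others. DESeq2 called 7 and, without its Cook distance limit (added after seeing the data), 9. None of these was Hba-a1, Hbb, ENSRNOG00000047321 or ENSRNOG00000061299. Without that limit DESeq2 gave Hba-a1 a log2 fold change of 3.53 (adjusted p = 0.115) and Hbb 3.28 (adjusted p = 0.121). Over all settings with a p the adjusted p ranged from 0.115 to 0.608 for Hba-a1 and from 0.121 to 0.608 for Hbb. With each library left out, edgeR log2 fold changes ranged from 0.90 to 3.82 for Hba-a1 and from 0.97 to 3.56 for Hbb, the lowest without S8. The exact permutation difference ranged from 0.79 to 2.35 for Hba-a1, past the threshold only without S7, and from 0.99 to 2.37 for Hbb, past it without S6 or S7. Leaving out S7 removes the only overlap of the groups, so the p without it follows from that choice. The mean share of the 4 identifiers in the rhCDNF group ranged from 0.00607% (without S8) to 0.0445%. By Spearman's rho without S8, 2 of the 3 other globin identifiers were among the 3 genes most like Hba-a1; the cause was not tested. No paired analysis was possible because the columns carry no replicate number of the labels. Hbb rests on 23 to 2973 counts, which limits the ratio in S5.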
